A study of Canis lupus familiaris with 4 samples.

Results

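Collagen chain genes were examined in 4 canine glioblastoma lines by taking every probe set whose single gene symbol has the form COL, a number, A and a number. The rule used names only and no measured value. It found 97 probe sets for 36 genes among the 15115 genes with a symbol on the array, and 30 of the 36 genes had more than 1 probe set. Each gene was read from its brightest probe set, meaning the one with the highest mean over the arrays, and the other probe sets served as a check. For 34 genes the Entrez identifier and symbol matched the current RefSeq table, while the identifiers given for COL10A1 and COL25A1 were not in it. COL6A2, COL6A5, COL9A2, COL9A3, COL11A1, COL18A1 and COL28A1 are in RefSeq but had no probe set under this rule, and they were not analysed here.

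J3T-1 and J3T-2 are sublines of the same canine glioblastoma cells, J3T. The paper describes J3T-1 as high and J3T-2 as low in annexin A2 (ANXA2) expression. J3T-1shA is J3T-1 with ANXA2 knocked down, and J3T-2A is J3T-2 with ANXA2 overexpressed. All were grown in culture in serum-containing medium, and total RNA of each was hybridized to 1 Affymetrix canine array, so each ratio compares 2 arrays and has no replicate and no test. The ANXA2 signal of the brightest probe set was 28656 for J3T-1, 30093 for J3T-1shA, 30103 for J3T-2 and 28775 for J3T-2A. It does not separate the lines by these descriptions, so each name below stands for the array labelled with it. These signals are among the highest on the arrays. No other ANXA2 probe set was read here, and whether such bright signals were compressed was not tested. Vector controls of the knockdown and overexpression were not analysed here, and a change that comes with deriving a line cannot be told apart from one that comes with ANXA2.

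Collagens are extracellular matrix proteins built from chains that wind around each other in a triple helix. Fibrillar chains form the tensile fibrils of connective tissue, type IV chains form the sheet of basement membranes, type VI chains form beaded microfilaments, FACIT chains sit on the surface of fibrils, and transmembrane chains are anchored in the plasma membrane. Healthy brain tissue holds little fibrillar collagen, and most of its collagen lies in the basement membranes of blood vessels.

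The values are MAS 5.0 signals, which are linear intensities scaled to the same trimmed mean on every array (495.8 to 496.0, with medians of 101.8 to 106.5 and highest signals of 44435 to 46646). A signal of 250 was taken as the limit for a measured gene, and 35.2% to 35.9% of the 42924 probe sets reached it per array. As a yardstick for the measurement itself, the log2 ratios of the brightest and the next probe set of the same gene differed with an SD of 0.29 in the overexpression ratio (J3T-2A over J3T-2), 0.37 in the knockdown ratio (J3T-1 over J3T-1shA) and 0.37 in the parental ratio (J3T-1 over J3T-2), each over 3718 to 3769 genes. For the other 3 pairs of arrays it was 0.33 to 0.41. This spread holds differences between probe sets within 1 RNA sample and nothing of the variation between cultures. Signals of different genes are not compared with each other, because each probe set binds with its own strength.

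Of the 36 collagen genes, 13 reached 250 on at least 1 array and 9 did so on all 4. The 13 were the fibrillar chain genes COL1A1, COL1A2, COL5A1, COL5A2, COL11A2 and COL27A1, the basement membrane genes COL4A1 and COL4A2, the multiplexin COL15A1, the microfibrillar gene COL6A1, the FACIT genes COL14A1 and COL16A1 and the transmembrane gene COL13A1. Of the 13, 6 were highest in J3T-1shA and 6 were lowest in J3T-1, but 4 were lowest in J3T-1shA. No single order of the lines therefore held for the family.

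**Figure D1:**
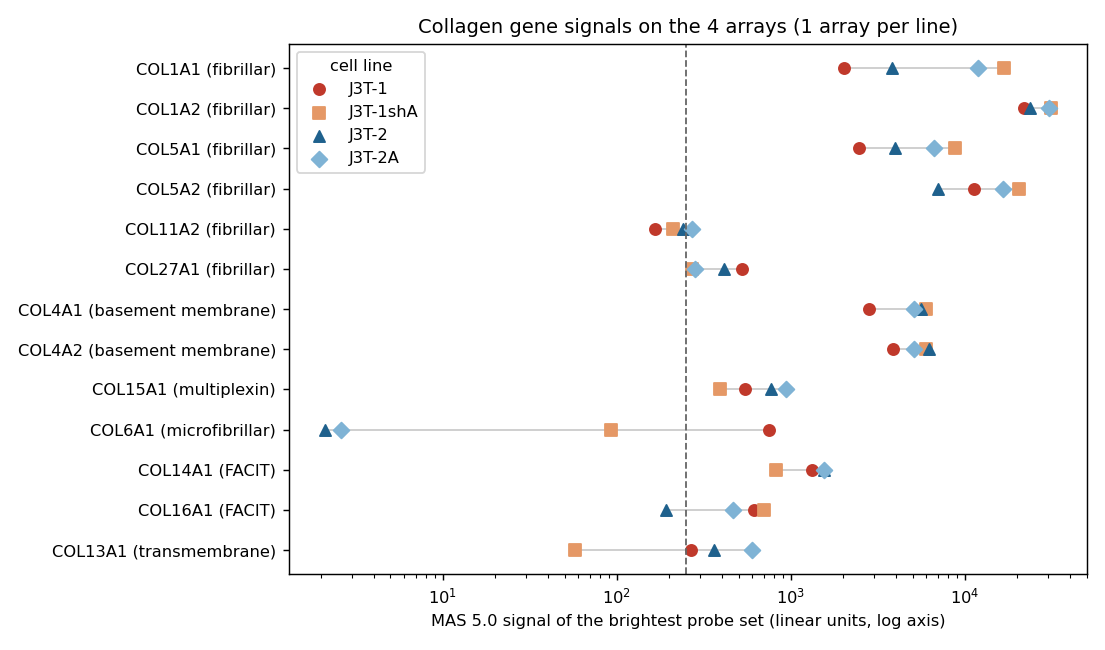
MAS 5.0 signal (x axis, linear units on a log axis) of the brightest probe set of the 13 measured collagen genes (y axis), with 1 point per cell line and 1 array per line. The dashed line is the limit of 250, and the type I and V chain genes are highest in J3T-1shA and J3T-2A, whereas COL27A1 is lowest there.

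The chains of the major fibrils, types I and V, were brightest in J3T-1shA, next in J3T-2A and dimmer in both parental lines. Type I collagen is the main fibril protein of bone, skin and tendon, and type V is built into the same fibrils and controls their assembly and width. COL1A1 had signals of 16842 in J3T-1shA, 11899 in J3T-2A, 3799 in J3T-2 and 2014 in J3T-1. Each step of this order was larger than the SD between probe sets. COL5A1 followed the same order, with 8772, 6623, 3952 and 2450, and again each step was larger than that SD. COL5A2 had 20400 in J3T-1shA and 16578 in J3T-2A, which differed by less than the SD, then 11308 in J3T-1 and 7042 in J3T-2. For this gene the parental lines thus stood in the opposite order to COL1A1 and COL5A1.

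COL1A2, the partner chain of COL1A1 in type I collagen, showed the same 2 brighter and 2 dimmer arrays with a much smaller range. Its brightest probe set had 31253 in J3T-1shA, 30514 in J3T-2A, 23488 in J3T-2 and 21684 in J3T-1, and the neighbours within each of these pairs differed by less than the SD. These signals are among the highest on the arrays. The other 3 probe sets had larger ratios, up to 2.40-fold between J3T-1shA and J3T-1 and up to 2.20-fold between J3T-2A and J3T-2, against 1.44-fold and 1.30-fold for the brightest. The probe set with the lowest signals, 823.3 in J3T-1, 1769 in J3T-1shA, 785.6 in J3T-2 and 1272 in J3T-2A, gave 2.15-fold and 1.62-fold.

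COL1A1 also gave different sizes by probe set. The second probe set had 3826 in J3T-1shA, 1654 in J3T-2A, 309.4 in J3T-2 and 174.0 in J3T-1, and the third had 981.0, 690.2, 186.1 and 153.8. The order of the lines was the same in all 3 probe sets. J3T-1shA over J3T-1 was 8.36-fold by the brightest, 22.0-fold by the second and 6.38-fold by the third, and J3T-2A over J3T-2 was 3.13-fold, 5.35-fold and 3.71-fold. The dimmer arrays of the last 2 probe sets were partly under the limit. With J3T-1 set at 250 the first of these ratios was at least 15.3-fold by the second and 3.92-fold by the third, and with J3T-2 set at 250 the other was at least 2.76-fold by the third. Probe sets of one gene can share sequence, so they are not independent readings. Whether bright signals were compressed was not tested.

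COL5A1 and COL5A2 each had a second probe set over the limit. That of COL5A1 had 2619 in J3T-1shA, 1749 in J3T-2A, 1055 in J3T-2 and 678.3 in J3T-1, and its 3.86-fold and 1.66-fold ratios lay close to the 3.58-fold and 1.68-fold of the brightest. That of COL5A2 had 10236 in J3T-1shA, 5954 in J3T-2A, 3268 in J3T-1 and 1647 in J3T-2. It gave 3.13-fold between J3T-1shA and J3T-1, where the brightest gave 1.80-fold, and 3.62-fold between J3T-2A and J3T-2, where the brightest gave 2.35-fold.

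COL27A1 ran the other way. It encodes a fibrillar chain best known from developing cartilage, and its brightest probe set had 525.3 in J3T-1, 410.0 in J3T-2, 281.3 in J3T-2A and 269.2 in J3T-1shA. The parental lines were the higher ones, and the neighbours within each pair differed by less than the SD. The second probe set had 562.0, 357.6, 258.9 and 216.2 in the same order of lines, and the third had 399.8, 348.1, 170.1 and 125.2. J3T-1 over J3T-1shA was 1.95-fold, 2.60-fold and 3.19-fold by the 3 probe sets, and J3T-2 over J3T-2A was 1.46-fold, 1.38-fold and 2.05-fold. With the dimmer array set at 250, J3T-1 was at least 2.25-fold higher by the second and 1.60-fold by the third, and J3T-2 at least 1.39-fold higher by the third.

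**Figure D2:**
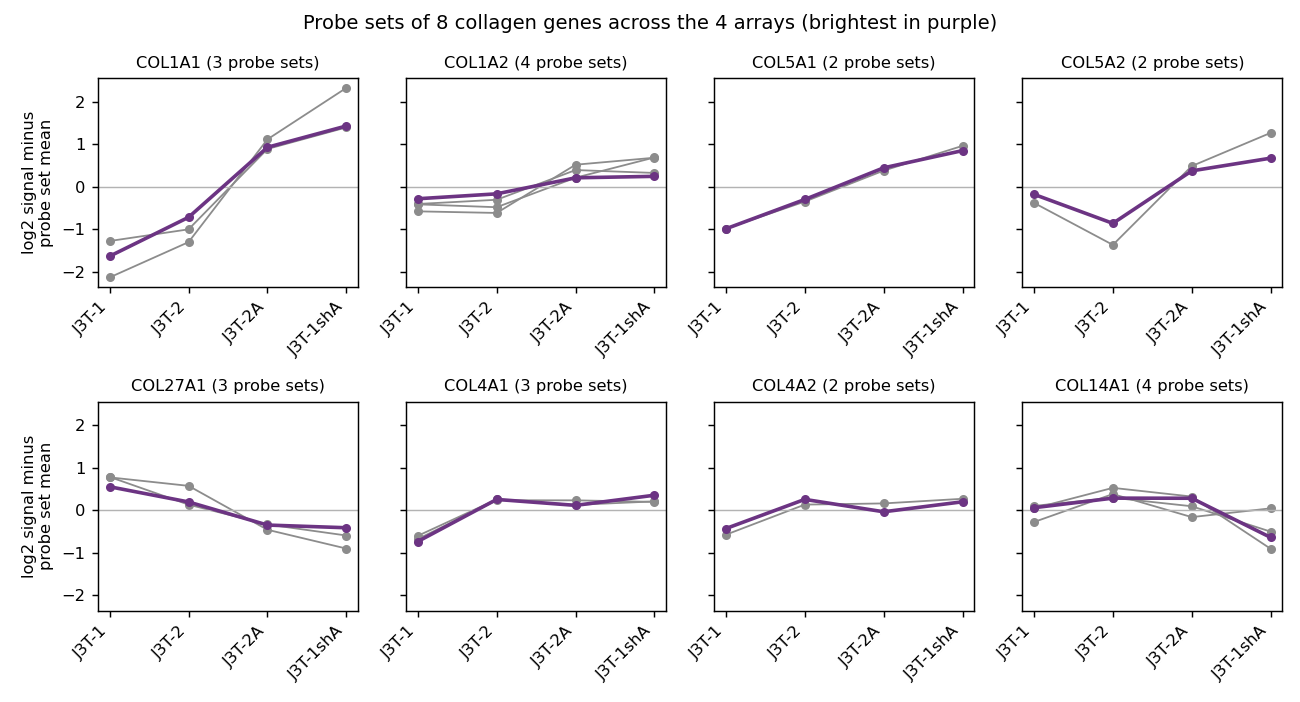
Log2 signal minus the probe set's own mean over the 4 arrays (y axis) for each probe set of 8 collagen genes that reached 250 on any array. Points are arrays, lines join the values of 1 probe set and the brightest is purple; the arrays are set in the order of COL5A1 signals, along which the probe sets of COL1A1 and COL5A1 go up and those of COL27A1 go down.

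The remaining fibrillar genes were dim. COL11A2, a chain of cartilage type XI collagen, reached the limit only in J3T-2A (269.2) and had 239.9 in J3T-2, 210.9 in J3T-1shA and 165.8 in J3T-1, each neighbour within the SD. COL3A1, the type III chain found beside type I in vessels and skin, had 176.3 in J3T-1shA, 141.1 in J3T-1, 101.2 in J3T-2A and 52.8 in J3T-2. Its highest signal by any of 5 probe sets was 213.4, in J3T-1shA. In the RefSeq table (assembly UU_Cfam_GSD_1.0) COL3A1 and COL5A2 are neighbours on chromosome 36, and only COL5A2 was measured. COL2A1, COL5A3 and COL24A1 were also under the limit on all arrays.

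The type IV chains COL4A1 and COL4A2, which together form the common network of basement membranes, were lowest in J3T-1 and alike elsewhere. COL4A1 had 2817 in J3T-1 against 5994 in J3T-1shA, 5596 in J3T-2 and 5080 in J3T-2A. COL4A2 had 3877 in J3T-1 against 5999, 6239 and 5097 in the same order. J3T-1 stood apart by more than the SD between probe sets for both genes, and the neighbours among the other lines did not. The dimmer probe sets of COL4A1 had 2532 and 908.6 in J3T-1 against 4195 to 4584 and 1665 to 1710 in the other lines. The second one of COL4A2 had 586.8 against 958.9 to 1054. These genes are neighbours on chromosome 22 of the same assembly, where they are transcribed away from each other from a shared promoter, and their log2 ratios differed by 0.15 in the overexpression ratio, -0.46 in the knockdown ratio and -0.30 in the parental ratio. COL4A3 to COL4A6, the chains of specialized basement membranes such as that of the kidney glomerulus, were under the limit on all arrays.

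COL6A1 reached the limit only in J3T-1. It encodes a chain of the type VI microfilaments that link cells to fibrils. The signal was 750.3 in J3T-1, 92.3 in J3T-1shA, 2.1 in J3T-2 and 2.6 in J3T-2A, and by the other probe set 336.1, 138.0, 7.7 and 9.6. The values of both J3T-2 lines are near the bottom of the scale, where a ratio has no readable size. With the dimmer array set at 250, J3T-1 was at least 3.0-fold higher than J3T-2 and J3T-1shA by the brightest probe set and at least 1.34-fold by the other. Of the partner chains, COL6A3 had 72.8 to 91.4, under the limit everywhere.

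COL13A1, a transmembrane collagen of cell contacts such as the neuromuscular junction, was lowest in J3T-1shA. It had 57.3 there, against 265.9 in J3T-1, 363.0 in J3T-2 and 596.4 in J3T-2A, and each step was larger than the SD. No other probe set of this gene reached the limit. The other transmembrane genes COL17A1, COL23A1 and COL25A1 had signals of at most 132.5, 141.9 and 186.9.

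The FACIT genes differed from each other. COL14A1, which binds along type I fibrils, had 818.5 in J3T-1shA against 1329 in J3T-1, 1553 in J3T-2 and 1551 in J3T-2A, and the other lines were neighbours within the SD. Its next 2 probe sets were also lowest in J3T-1shA, at 431.0 and 236.1, while the fourth, near the limit, was lowest in J3T-1 (207.4). COL16A1 had 191.2 in J3T-2, under the limit, against 466.6 in J3T-2A, 614.6 in J3T-1 and 703.6 in J3T-1shA. Its second probe set was also lowest in J3T-2, at 92.2. COL9A1, COL12A1, COL19A1, COL20A1, COL21A1 and COL22A1 were under the limit on all arrays.

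COL15A1, a multiplexin at the outer face of basement membranes, had 935.1 in J3T-2A, 769.5 in J3T-2, 544.1 in J3T-1 and 390.4 in J3T-1shA. Both J3T-2 lines were higher than both J3T-1 lines, and only J3T-2A and J3T-2 were neighbours within the SD. Its other probe sets stayed under the limit. The highest signal of any gene read as under the limit was 233.2, that of COL10A1 in J3T-2, and COL7A1, COL8A2, COL26A1 and COL6A6 were under it too. A signal under the limit does not show that a gene was silent.

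ANXA2 overexpression was addressed by J3T-2A over J3T-2. Here 3 of 12 measured collagen genes were over 2-fold higher (25%, against 1.69% of all 6860 measured genes) and 0 were over 2-fold lower (2.10% of all genes). The higher ones were COL1A1 (3.13-fold), COL16A1 (2.44-fold, with J3T-2 under the limit) and COL5A2 (2.35-fold). With J3T-2 set at 250, COL16A1 was at least 1.87-fold higher. In this pair it reached the limit only in J3T-2A, where it was high, so the share of higher genes is a description only. The log2 ratio was 0.74 for COL5A1, 0.72 for COL13A1, 0.38 for COL1A2, 0.28 for COL15A1, 0.17 for COL11A2 and -0.002 for COL14A1. It was -0.14 for COL4A1, -0.29 for COL4A2 and -0.54 for COL27A1. The median was 0.33 over the 12 collagens and 0.56 over 6 fibrillar genes, against -0.003 over all measured genes. COL1A1 was number 43 from the top among the genes with a higher signal in J3T-2A.

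ANXA2 knockdown was addressed by dividing J3T-1 by J3T-1shA, with the line described as higher in ANXA2 in the numerator again. Of 12 measured collagen genes, 2 were over 2-fold higher (16.7%, against 3.80% of all 6944 measured genes) and 3 were over 2-fold lower (25%, against 4.26%). Lower in J3T-1 were COL1A1 (8.36-fold), COL5A1 (3.58-fold) and COL4A1 (2.13-fold), but the other probe sets of COL4A1 gave 1.75-fold and 1.83-fold. Higher in J3T-1 were COL6A1 and COL13A1 (4.64-fold). In this pair both reached the limit only in J3T-1, where they were high, so the share of higher genes is a description only. COL13A1 was only at least 1.06-fold higher with J3T-1shA set at 250, because J3T-1 itself lay just over the limit. The log2 ratio was 0.96 for COL27A1, 0.70 for COL14A1 and 0.48 for COL15A1. It was -0.20 for COL16A1 (0.47 by its second probe set), -0.53 for COL1A2, -0.63 for COL4A2 and -0.85 for COL5A2. The median was -0.36 over the 12 collagens and -0.85 over 5 fibrillar genes, against 0.03 over all measured genes. The fibrillar median and COL5A2 depended on the probe set. Both were -1.25 with the median over probe sets and -1.65 without probe sets that may bind several transcripts, so that COL5A2 was then over 2-fold lower. With only probe sets under 20000 on all arrays, a choice made after seeing the data, the fibrillar median was -1.65, COL1A2 and COL5A2 were over 2-fold lower (2.15-fold and 3.13-fold) and the count was 5.

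The ratios of the type I and V chains thus had opposite signs in both ANXA2 comparisons, which share no array, and so did those of COL27A1. COL1A1 had a log2 ratio of 1.65 for overexpression and -3.06 for knockdown, COL5A1 had 0.74 and -1.84, and COL5A2 had 1.24 and -0.85. Of 11 collagens measured in both, 5 had opposite signs beyond the SD between probe sets (45.5%, against 11.0% of the 6563 genes measured in both), the fifth being COL1A2. Only COL13A1 had the same sign beyond the SD in both (9.09%, against 4.77%).

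**Figure D3:**
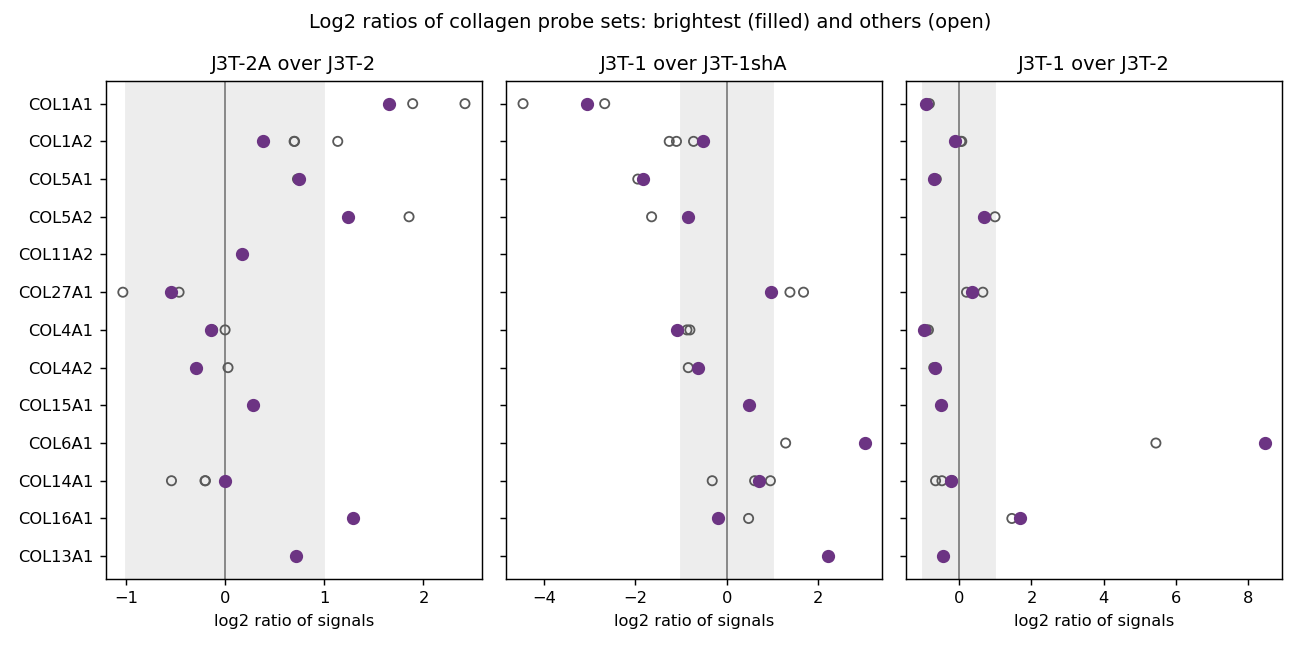
Log2 ratio of signals (x axis, with its own range in each panel) for each measured probe set of the 13 collagen genes in 3 pairs of arrays. Filled points are the brightest probe set, open points the others and the grey band is 2-fold either way; COL1A1, COL5A1, COL5A2 and COL27A1 lie on opposite sides of 0 in the left and middle panels.

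Between the parental lines, J3T-1 over J3T-2, 2 of 12 measured collagen genes were over 2-fold higher (16.7%, against 2.94% of all 6967 measured genes) and 0 were over 2-fold lower (4.05% of all genes). This pair shares an array with each of the ANXA2 comparisons and is given as a description. The higher ones were COL6A1 and COL16A1 (3.21-fold), and in this pair both reached the limit only in J3T-1, where they were high. With J3T-2 set at 250, COL16A1 was at least 2.46-fold higher by the brightest probe set and at least 1.01-fold by the second. COL4A1 was just inside 2-fold at a log2 ratio of -0.99, and COL1A1 had -0.92, COL5A1 -0.69, COL4A2 -0.69 and COL5A2 0.68. The median was -0.34 over the collagens and -0.12 over 5 fibrillar genes, against 0.03 over all measured genes. The fibrillar median changed sign with the processing, to 0.24 with no filter on signal and 0.068 with probe sets under 20000.

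The partner chains of types I and V had unequal ratios by their brightest probe sets. The log2 ratio of COL1A1 minus that of COL1A2 was 1.27 for overexpression, -2.54 for knockdown and -0.80 for the parental lines. COL5A1 minus COL5A2 was -0.49, -0.99 and -1.37. These differences were larger than the SD between probe sets of 1 gene, but for COL1A2 and COL5A2 they rest on bright probe sets. By the second probe set of COL5A2 the knockdown difference of type V was -0.19, within the SD. In the other comparisons that probe set widened the difference. Its log2 ratio was 1.85 for overexpression and 0.99 for the parental lines, against 0.74 and -0.69 for COL5A1. For type IV the differences given above were within the SD for overexpression and for the parental lines.

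**Figure D4:**
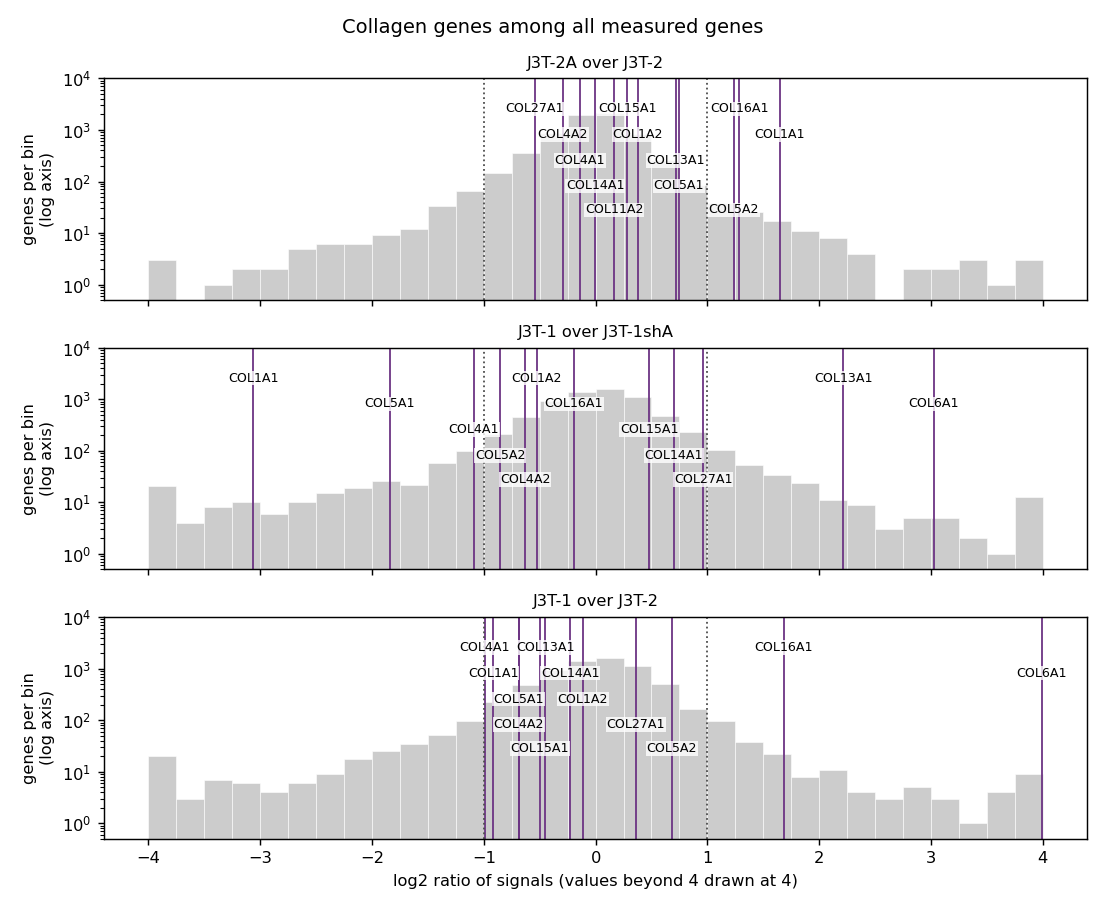
Number of genes per bin (y axis, log axis) by log2 ratio (x axis) over all measured genes in 3 pairs of arrays, with each measured collagen gene as a purple line and dotted lines at 2-fold. Collagen genes lie over 2-fold to the right in the top panel, to both sides in the middle panel and to the right in the bottom panel, where COL6A1 lies beyond the axis.

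Genes for the making and cross-linking of collagen were examined on a separate list, of which 27 of 30 genes were on the array and 20 were measured. In the overexpression ratio, 2 of the 20 were over 2-fold higher (against 1.69% of all measured genes) and 0 were lower (against 2.10%), with a median log2 ratio of 0.15. P3H2, a prolyl 3-hydroxylase of collagen, had 314.0 in J3T-2A against 75.7 in J3T-2, which is at least 1.26-fold with J3T-2 set at 250, and LOX, which cross-links fibrils, was 2.63-fold higher. In the knockdown ratio, 4 were over 2-fold lower (against 4.26% of all measured genes) and 2 were higher (against 3.80%), with a median of -0.34. SERPINH1, the collagen chaperone of the endoplasmic reticulum, had 3249 in J3T-1 against 6928 in J3T-1shA, and P3H2 had 320.7 against 1506. The cross-linking enzymes LOXL2 and LOXL3 were 2.80-fold and 2.30-fold lower. P4HA3, a subunit of prolyl 4-hydroxylase, had 1097 against 301.7 and PCOLCE, which enhances removal of the procollagen end, had 8703 against 4094, so both were higher in J3T-1. In the parental ratio, P3H2 and LOX were over 2-fold higher (against 2.94% of all measured genes) and 0 were lower (against 4.05%), with a median of -0.11. P3H2 was at least 1.28-fold higher there with J3T-2 set at 250. PPIB, P4HB, PLOD1, PLOD3, CRTAP, MIA3, BMP1, P3H1 and FKBP10 were within 2-fold in all 3 comparisons.

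Of 11 genes for collagen receptors and uptake, 10 were on the array and 5 were measured. ITGA2, a subunit of a collagen-binding integrin, had 1832 in J3T-1, 995.7 in J3T-1shA, 4088 in J3T-2 and 3645 in J3T-2A, and was over 2-fold lower in J3T-1 than in J3T-2. ITGA1, the subunit of another, reached the limit only in J3T-1shA (285.0) and had 135.2 in J3T-1. DDR2, a receptor kinase for fibrillar collagen, had 2302 to 2831, and ITGB1 and DDR1 were within 2-fold in all 3 comparisons.

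Markers of fibroblasts and pericytes did not share one order of the lines. The summed signal of 12 fibroblast and pericyte markers outside the collagens was 21256 in J3T-1, 39726 in J3T-1shA, 30969 in J3T-2 and 33511 in J3T-2A, a sum that adds probe sets of unlike strength. Without ACTA2 it was 20693, 26101, 30944 and 33412, with J3T-2A highest and J3T-1 lowest. LUM made up most of this second sum on every array, and no sum without LUM was taken. Neither order therefore describes the markers as a set. Of these markers 8 were measured. In the overexpression ratio 0 of 6 were over 2-fold different either way (against 1.69% of all measured genes higher and 2.10% lower). In the knockdown ratio 1 of 7 was over 2-fold higher and 2 were lower (against 3.80% and 4.26%), with a median of -0.46. In the parental ratio 3 of 8 were higher and 4 were lower (against 2.94% and 4.05%), with a median of -1.24. ACTA2, smooth muscle actin, had 13625 in J3T-1shA, 562.2 in J3T-1, 98.7 in J3T-2A and 24.9 in J3T-2. FAP, a fibroblast protease, had 519.6 in J3T-1, 7.5 in J3T-1shA, 81.1 in J3T-2 and 17.3 in J3T-2A. TAGLN, a smooth muscle actin-binding protein, had 3523, 4487, 489.8 and 680.3 in that order. These 3 were the higher ones in the parental ratio. DCN, a proteoglycan that binds collagen fibrils, had 387.9, 1167, 1292 and 794.8, and was over 2-fold lower in J3T-1 than in J3T-1shA and in J3T-2. FBLN1 (711.4 against 2510), PDGFRA (88.9 against 352.7) and THY1 (216.4 against 915.7) were over 2-fold lower in J3T-1 than in J3T-2. LUM had 14940, 18644, 25065 and 29213, highest in J3T-2A. PDGFRB, RGS5, CSPG4 and MCAM were under the limit on all arrays. With the dimmer array set at the limit, J3T-1 over J3T-2 was at least 2.25-fold for ACTA2 and 2.08-fold for FAP. On the same basis THY1 was at least 3.66-fold lower in J3T-1 than in J3T-2, but PDGFRA only at least 1.41-fold. FAP was at least 2.08-fold higher in J3T-1 than in J3T-1shA. In these pairs these genes reached the limit only where they were high, so the shares of markers over 2-fold are a description only. The lines are cultures derived from the same J3T cells and not tissue. Whether subpopulations within a culture had a part in the collagen ratios was not tested. Fewer cells with an RNA and less of it per cell cannot be told apart in bulk RNA.

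Of the glial markers, 8 of 10 were on the array, and the missing ones were the oligodendrocyte lineage markers OLIG1 and OLIG2. SOX2 had 936.8 to 1663, and NES reached the limit only in J3T-1shA (345.9, against 150.2 in J3T-1). VIM and CD44 were bright, but the paper measured both as mesenchymal signature genes, so they are not read here as marking glial cells alone. The astrocyte markers GFAP and AQP4 had at most 21.6 and 16.9, and SOX10 and S100B at most 55.3 and 33.6. GFAP, AQP4, SOX10 and S100B were thus under the limit on all arrays, while OLIG1 and OLIG2 could not be read. The origin of the lines was not tested. Of 7 endothelial markers only PECAM1 reached the limit, in J3T-2 (773.2), and the 4 chondrocyte markers, ACAN, SOX9, COMP and MATN3, were under it on all arrays.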

How the data were processed

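Total RNA of each of the 4 lines was measured on 1 GeneChip Canine Genome 2.0 array. The deposited values are signal intensities, which the authors obtained array by array in MAS 5.0, left at its defaults, and scaled globally to one trimmed mean. The table holds no detection calls, and no genome build is given in the sources used here.

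Probe sets with 1 gene symbol in the platform annotation (29254) were used, and 439 with several were left out, among them 1 for COL25A1. Ratios were taken between the deposited signals without further normalization. A gene was measured in a pair where the higher array reached 250, and over 2-fold was the methods' fold criterion without its P value, which needs probe-level data. Named were all measured collagen genes, and list members over 2-fold different; the list members and dim genes named beyond that were chosen after their values were seen. The collagens, lists and limit were chosen with earlier results of these data known. Alternatives were other limits, an offset, a floor, other probe sets and 2 normalizations. Ratio code was tested on simulated data. Python 3.11.15, numpy 2.4.6 and pandas 2.3.3 were used. The number of arrays limits precision.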

Additional observations from a re-analysis of the deposited data

Results flagged for a closer look

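The ratio of the line described as higher in ANXA2 over its counterpart was compared between the J3T-2 and J3T-1 lineages. For 5 of 11 collagen genes it had opposite signs, each beyond the SD between probe sets (45.5%, against 11.0% of all 6563 genes measured in both). The ANXA2 signal, read from its brightest probe set only, did not separate these lines. With 1 array per line the difference between lineages was not tested. The log2 ratio of overexpression (J3T-2A over J3T-2) minus that of knockdown (J3T-1 over J3T-1shA) was 4.71 for COL1A1 (1.65 and -3.06), 2.58 for COL5A1 (0.74 and -1.84), 2.09 for COL5A2 (1.24 and -0.85) and 0.90 for COL1A2 (0.38 and -0.53). It was -1.51 for COL27A1 (-0.54 and 0.96). For the 7 measured fibroblast and pericyte markers the median of knockdown was -0.46 and for 6 that of overexpression was -0.11. A link between these markers and the collagen ratios was not tested.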

How the results depend on the processing

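The median log2 ratio of the measured collagens kept its sign in all 3 comparisons under all alternatives run, of which the one with probe sets under 20000 was chosen after seeing the data. It was 0.057 to 0.49 for J3T-2A over J3T-2, -0.73 to -0.30 for J3T-1 over J3T-1shA and -0.48 to -0.097 for J3T-1 over J3T-2. With no filter on signal, where all 36 genes enter, 5 genes were over 2-fold higher and 4 lower for J3T-2A over J3T-2 (3 and 0 with the limit of 250), 4 and 11 for J3T-1 over J3T-1shA (2 and 3), and 5 and 3 for J3T-1 over J3T-2 (2 and 0). Over all 15115 genes that setting called 9.36% higher and 9.65% lower, 10.5% and 10.9%, and 9.90% and 10.8%, against 30.6% of the collagens for the 11 genes and 8.33% to 13.9% for the other 5 counts. For J3T-1 over J3T-1shA, 1 gene was higher at a limit of 500 and 1 with a floor of 160, under which COL13A1 fell within 2-fold, and 5 were lower with probe sets under 20000. For J3T-1 over J3T-2, 1 was higher without probe sets whose suffix (_s_at or _x_at) marks possible binding to several transcripts, which leaves COL16A1 unmeasured. For J3T-2A over J3T-2, 2 were higher without these probe sets and 2 at a limit of 500, and COL16A1 was unmeasured in both settings. COL16A1 changed sign for J3T-1 over J3T-1shA with the median of the probe sets (0.14), and the fibrillar median for J3T-1 over J3T-2 with no filter (0.24) and with probe sets under 20000 (0.068). Single genes were recomputed only where they were over 2-fold different in at least 1 comparison. Of 85 recomputed values over 2-fold different, 83 stayed so and 0 reversed. Of the values of these genes within 2-fold, 3 became over 2-fold, all of COL5A2 for J3T-1 over J3T-1shA. COL1A2 and COL27A1 lie outside these counts. In that pair COL1A2 became 2.15-fold lower with probe sets under 20000. COL27A1 became 2.60-fold higher there with the median over probe sets and without the suffix-marked probe sets. No paired analysis was possible because each line has 1 array. The cause of these shifts was not tested.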
